A study of Mus musculus with 16 samples.

Results

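Adult cardiomyocytes (aCMs) were compared with cardiac stem cells (CSCs) by total RNA sequencing, gene by gene. The comparison used 5 of the 16 samples of the series, 2 aCM libraries and 3 CSC libraries, as their labels name them. Of 39043 entries in the table of genes, 20254 had enough counts to be tested. Both cell types came from hearts of mice labelled C57BL/6 (C57BL/6J in the methods), without a transgene, an allele or a treatment. The aCMs were freshly isolated by collagenase digestion, and the methods describe pools of 2 hearts as replicates. The CSCs were depleted of CD45+ and CD31+ cells, selected for c-kit and grown in serum-containing medium on gelatin, and all 3 libraries came from 1 clone. Their spread is therefore that of cultures of 1 line, not of animals. The labels give no age. The study states 10 weeks for the aCM mice in one place and 12 weeks for the adult mice of both cell types in another. Freshly isolated cells and cultured cells also differ in their surroundings, which cannot be told apart here from cell type. The libraries were prepared in 2 groups that the labels do not assign.

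Adult ventricular cardiomyocytes are large, mostly non-dividing cells that contract with sarcomeres, trigger each beat by releasing calcium from the sarcoplasmic reticulum, and burn mainly fatty acids in abundant mitochondria. Cells expanded from the heart by c-kit selection divide in culture and are known for a mesenchymal profile. The comparison thus sets the end point of heart muscle differentiation against the proliferating cells that the study used as its starting point.

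The 2 aCM libraries held 11114519 and 14589730 counts, and the 3 CSC libraries held 52710684, 63238429 and 29868771 counts. The 10 most abundant genes took 19 and 17.1% of the counts in aCMs, against 4.20 to 5.39% in CSCs. CPM values below are counts relative to library size, scaled for this by the trimmed mean of M-values. Across genes, Spearman's rho was 0.972 between the aCM libraries, 0.966 to 0.979 among the CSC libraries and 0.690 to 0.723 between aCMs and CSCs. Kit, which encodes the receptor that CSCs were selected for, had 9.86 and 6.80 CPM in aCMs, against 0.0836, 0.0303 and 0 CPM in CSCs, so its RNA was at or near 0 in the cultured clone. Ptprc (CD45) and Pecam1 (CD31) were low in CSCs, with 0, 0.0152 and 0.0585 CPM of Ptprc and 2.54, 1.44 and 2.48 CPM of Pecam1. The cardiomyocyte genes Myh6, Tnni3 and Actn2 were high in both aCM libraries, but those libraries also held endothelial, mural and macrophage transcripts, which are described at the end.

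A gene was called when its adjusted p was below 0.05 in edgeR's quasi-likelihood test and its fold was at least 2.5. In aCMs relative to CSCs, 4906 genes were called higher, 24.2% of the 20254 tested, and 4140 were called lower, 20.4% of those tested. These shares are the background for every gene list below. The median log2 fold change was −0.10 over all tested genes, 3.65 over the genes called higher and −2.64 over those called lower. The values of the 2 groups did not overlap in 4779 of the genes called higher and in 4119 of those called lower. Over all 20254 tested genes there was no overlap in 14621, so separation of the groups was not particular to called genes. In the fit 1625 genes were at least 32-fold higher and 797 at least 32-fold lower, and 289 were at least 1000-fold higher and 43 at least 1000-fold lower. No counts were found in any CSC library for 230 of the genes called higher, and none in either aCM library for 433 of those called lower. The fitted folds of such genes are not measured sizes, and the smaller depth of the aCM libraries limits how deep a fall can be measured, so the reach of rises and falls cannot be compared. With scaling to library totals alone the split was 3816 higher and 6695 lower, and no call changed direction, although values near 0 did. The p-values rest on the spread within groups, pooled over these 5 libraries and the 3 libraries of CSC-derived cardiomyocytes that shared the fit. With 2 aCM libraries, most of that spread is of cultures, not of animals.

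**Figure D1:**
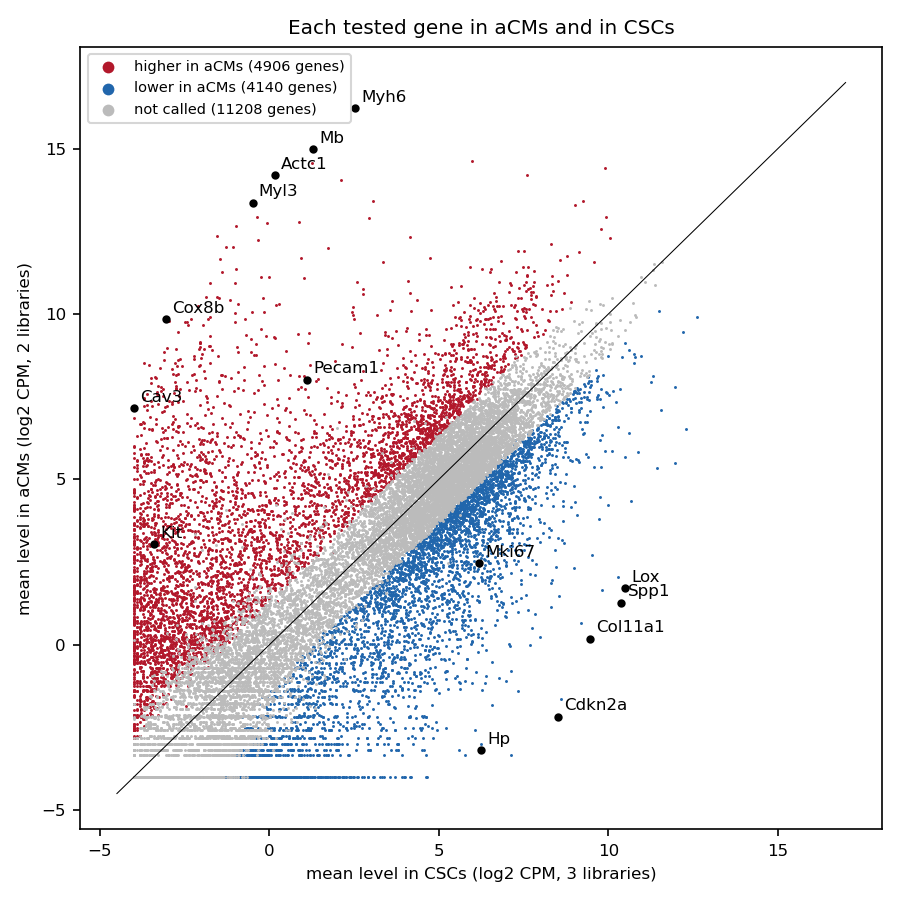
Mean log2 CPM of each of the 20254 tested genes in CSCs and in aCMs (1 point per gene). The 4906 genes called higher in aCMs and the 4140 called lower lie on either side of the diagonal.

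Most of the 15 largest rises among well-measured genes were muscle genes. Myosin heavy chain alpha, Myh6, the main motor of the adult mouse ventricle, had 85048 and 68448 CPM in aCMs, against 6.42, 4.92 and 5.73 CPM in CSCs (13.72 ± 0.50). The cardiac actin Actc1 had 21282 and 16514 CPM in aCMs, against 1.07, 0.803 and 1.34 CPM in CSCs (14.12 ± 0.51). The ventricular light chain Myl3 had 10198 and 11028 CPM in aCMs, against 0.669, 0.576 and 0.702 CPM in CSCs (14.00 ± 0.36). In these 3 genes both aCM libraries lay more than 1000-fold above every CSC library. Myoglobin, Mb, which stores oxygen in muscle, had 33993 and 30673 CPM in aCMs, against 2.98, 1.83 and 2.48 CPM in CSCs (13.70 ± 0.42). Muscle creatine kinase, Ckm, had 5162 and 5329 CPM in aCMs, against 0.435, 0.333 and 0.146 CPM in CSCs (13.98 ± 0.43). The values in parentheses, here and below, are log2 fold changes of aCMs over CSCs with their standard errors (SE).

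Caveolin 3, Cav3, the muscle caveolin, had 138 and 148 CPM in aCMs, against 0 CPM in all 3 CSC libraries and was at least 7669-fold higher, where the bound sets CSCs at a floor of 3 counts over the group. By the same floor, Myot (myotilin, a Z-disc protein) was at least 6041-fold, Fbp2 (muscle fructose bisphosphatase) at least 3295-fold and Svip at least 2663-fold higher, each with 0 counts in all CSC libraries. Dhrs7c, an enzyme of the sarcoplasmic reticulum, had 415 and 328 CPM in aCMs, against 0, 0 and 0.0585 CPM in CSCs, a ratio of 29148-fold (8066 to 240734). Intervals of this kind cover counting error only, at 95%. Mybpc3, Cox8b, Nrap and Actn2 also stood in this set, with log2 fold changes of 13.79, 13.77, 13.58 and 13.49. Svip is not known as a muscle gene, nor is Robo4, an endothelial receptor, at 49.3 and 63.4 CPM in aCMs, against 0 CPM in all 3 CSC libraries, at least 3062-fold higher.

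The 15 deepest falls were led by Cdkn2a, which encodes the cell cycle inhibitor p16 and the p53 activator p19Arf from overlapping transcripts that gene counts cannot separate. It had 0.131 and 0.192 CPM in aCMs, against 396, 212 and 568 CPM in CSCs, a ratio of 2146-fold (734 to 10406) in favour of CSCs. Several others encode matrix proteins or their modifiers. The fibrillar collagen Col11a1 had 0.920 and 1.25 CPM in aCMs, against 990.2, 402 and 864 CPM in CSCs (−9.41 ± 0.55). Osteopontin, Spp1, had 2.89 and 1.92 CPM in aCMs, against 2140.4, 772 and 1442 CPM in CSCs (−9.26 ± 0.60). The collagen and elastin crosslinker Lox had 3.02 and 3.45 CPM in aCMs, against 1981, 1248 and 1243 CPM in CSCs (−8.84 ± 0.38). These 3 genes were at 3.45 CPM or less in both aCM libraries and at 402 CPM or more in every CSC library. The adhesive glycoprotein Thbs1 had 3.15 and 2.97 CPM in aCMs, against 1801, 1149 and 361 CPM in CSCs (−8.49 ± 0.76), and the link protein Hapln4 had 0.131 and 0 CPM in aCMs, against 71.8, 41.2 and 37.6 CPM in CSCs, a ratio of 936-fold (168 to 36975).

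The transcription factors Prrx2 and Foxf2, both of mesenchyme, also stood in this set. Prrx2 had 0.263 and 0.383 CPM in aCMs, against 258, 108 and 154 CPM in CSCs (−9.01 ± 0.58), and Foxf2 had 0.131 and 0.0958 CPM in aCMs, against 48.4, 38.2 and 27.8 CPM in CSCs, a ratio of 359-fold (99.3 to 2965). The imprinted, retrotransposon-derived gene Peg10 had 1.31 and 1.72 CPM in aCMs, against 533, 773 and 472 CPM in CSCs (−8.59 ± 0.37). Plac8 and Aldh3a1 fell by 10.21 and 8.27 on the log2 scale. Steap1, with 0 and 0.0958 CPM in aCMs, against 40.4, 87.8 and 45.1 CPM in CSCs, and Anxa8, with 0 and 0.192 CPM in aCMs, against 61.6, 167 and 42.5 CPM in CSCs, were close to 0 in aCMs. The acute phase gene Hp and the apolipoprotein gene Apol9a varied among the CSC libraries, with 0.131 and 0 CPM in aCMs, against 196, 17.2 and 126 CPM in CSCs for Hp and 0.657 and 0.288 CPM in aCMs, against 59.8, 296 and 75.1 CPM in CSCs for Apol9a. All 30 genes kept their call when any one library was left out.

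**Figure D2:**
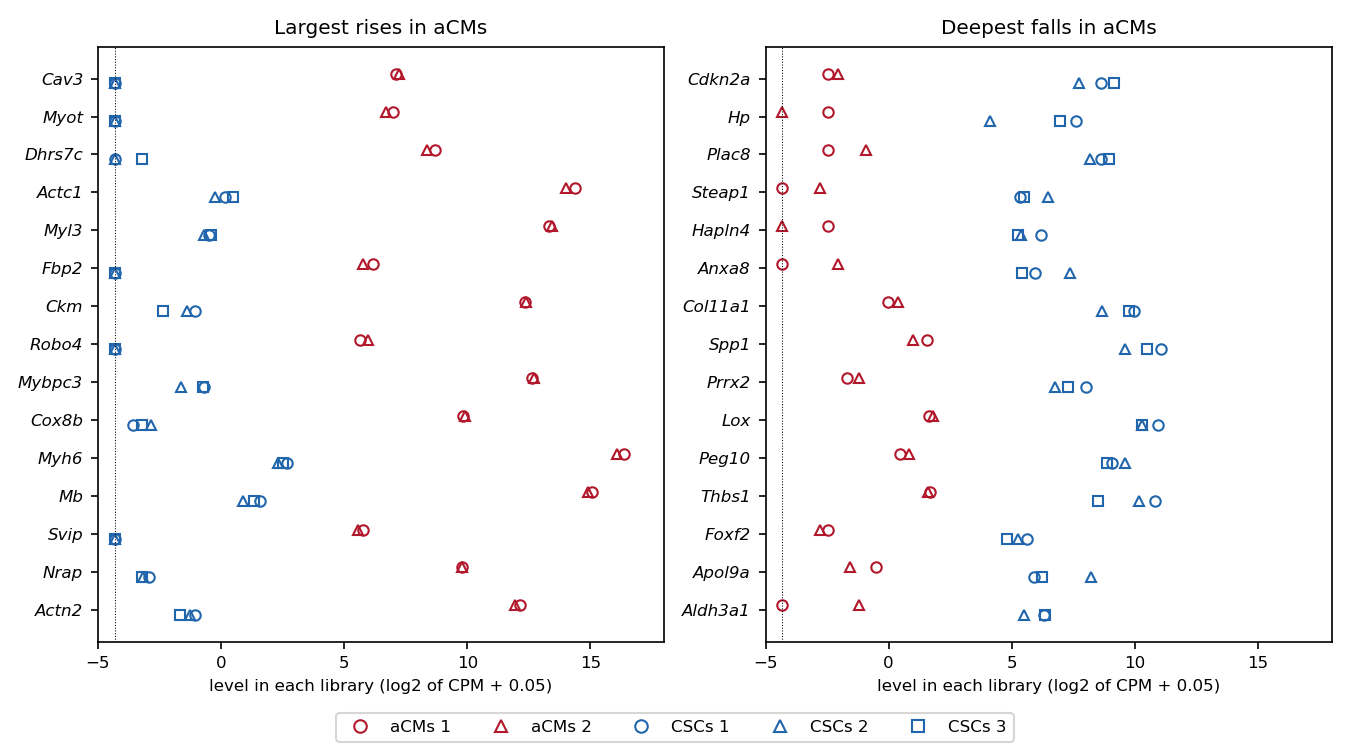
Level of each of the 15 genes with the largest rise (left) and the 15 with the deepest fall (right) in every library, as log2 of CPM plus 0.05. The aCM and CSC points are separate in every gene, with the aCM points of Cav3 at 138 and 148 CPM and the CSC points at 0.

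Most genes of the contractile apparatus were higher in aCMs. Of 39 sarcomere genes, 37 rose and none fell, with a median log2 fold change of 10.80. All 9 thick filament genes rose, among them Myl2, the ventricular regulatory light chain, with 26086 and 22930.1 CPM in aCMs, against 2.96, 1.47 and 2.90 CPM in CSCs (13.30 ± 0.49), and Myh7, the slow beta myosin, with 1302 and 1470 CPM in aCMs, against 0.552, 0.197 and 0.497 CPM in CSCs (11.73 ± 0.60). Of 10 thin filament genes, 9 rose. Cardiac troponin T, Tnnt2, which ties the troponin complex to tropomyosin, had 25651 and 24502 CPM in aCMs, against 34.2, 108 and 65.8 CPM in CSCs (8.5 ± 0.55). Cardiac troponin I, Tnni3, had 19003 and 15098 CPM in aCMs, against 4.80, 2.82 and 5.88 CPM in CSCs (11.90 ± 0.47), a larger fold than that of Tnnt2. Tropomyosin 1, Tpm1, had 24739 and 19539.9 CPM in aCMs, against 860.2, 933 and 1058 CPM in CSCs (4.54 ± 0.29): its CSC level was high already, and its rise was among the smaller ones of the list.

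Of 20 genes of the Z-disc, titin and M-band, 19 rose. The giant spring protein titin, Ttn, had 8743 and 5796 CPM in aCMs, against 1.86, 1.27 and 2.28 CPM in CSCs (11.99 ± 0.48), and the Z-disc crosslinker Actn2 had 4476 and 3959.9 CPM in aCMs, against 0.435, 0.364 and 0.263 CPM in CSCs (13.49 ± 0.42). The stretch-responsive Ankrd1 had 1309 and 1596 CPM in aCMs, against 44.2, 112 and 58.1 CPM in CSCs (4.34 ± 0.46). The members not called were the slow skeletal and fetal troponin Tnni1, with 0.657 and 0.671 CPM in aCMs, against 2.89, 0.712 and 2.25 CPM in CSCs, and filamin C, Flnc, with 871 and 707 CPM in aCMs, against 312, 394 and 349 CPM in CSCs, a difference of 1.17 on the log2 scale that passed the p but not the fold. Without CSC library 2 Tnni1 was called lower, at −1.95. Counts of Myh6 and Myh7, and of the skeletal myosins, come from near-identical neighbours and may be shared between them.

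The start regions of sarcomere genes are shown because the list moved almost as a whole. RefSeq promoters (250 bases before to 50 after the start, GRCm38.p6) were matched for 33 of its genes, and for 13008 tested genes in all. A gene was counted once if any of its promoters held the motif, and counts of promoters here and below are counts of such genes. The MEF2 motif, searched as CTA and TAG with any 4 bases between them on both strands, stood in 9 of the 33 sarcomere promoters (27.3%), against 3.78% of all 13008. The E-box CAGCTG, whose letters do not overlap those of the MEF2 motif, also stood in 9 of the 33 (27.3%), against 18.9% of all. Those of Xirp2 and Mybpc3 are given as the last 100 bases before the start, in the direction of transcription, with the MEF2 motif in capitals.
Xirp2 (chr2:67445902-67446001, plus strand): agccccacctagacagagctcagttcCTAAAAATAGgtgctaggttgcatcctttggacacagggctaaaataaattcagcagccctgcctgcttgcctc
Mybpc3 (chr2:91118044-91118143, plus strand): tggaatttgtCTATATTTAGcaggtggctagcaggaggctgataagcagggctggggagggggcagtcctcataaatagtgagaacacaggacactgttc
Xirp2, an actin-binding protein of the disc, had 796 and 820.4 CPM in aCMs, against 0.167, 0.0758 and 0.146 CPM in CSCs (12.60 ± 0.31), and Mybpc3, myosin-binding protein C, had 6264 and 6770.5 CPM in aCMs, against 0.569, 0.273 and 0.556 CPM in CSCs (13.79 ± 0.43). A match is a description of letters, and the motif was in none of the 13 calcium handling promoters and none of the 17 membrane excitability promoters matched, lists whose members also rose.

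Calcium handling followed the sarcomere, with 18 of 19 genes higher and a median of 7.56. The median was 7.12 with Sln, which had 0 CPM in all 3 CSC libraries, set at its bound. Sln, at 0.526 and 4.12 CPM in aCMs, and Mrln, at 0.920 and 0.958 CPM, were called higher at low levels. The ryanodine receptor Ryr2, the release channel of the sarcoplasmic reticulum, had 1588 and 1327 CPM in aCMs, against 0.318, 0.182 and 0.380 CPM in CSCs (12.32 ± 0.38). The pump that refills the store, Atp2a2, had 20259 and 17328 CPM in aCMs, against 167, 305 and 143 CPM in CSCs (6.52 ± 0.41), while its inhibitor phospholamban, Pln, had 8173 and 7567 CPM in aCMs, against 0.786, 0.576 and 0.789 CPM in CSCs (13.43 ± 0.33). The pump was thus present in CSCs at 143 to 305 CPM, whereas its regulator was below 1 CPM in each CSC library. The L-type channel subunit Cacna1c, through which calcium enters, had 289.9 and 278 CPM in aCMs, against 1.64, 1.65 and 1.17 CPM in CSCs (7.56 ± 0.26), and the sodium-calcium exchanger Slc8a1 had 657 and 496 CPM in aCMs, against 0.0836, 0.227 and 0.263 CPM in CSCs (11.59 ± 0.57). The exception was Fkbp1b, calstabin 2, which binds the ryanodine receptor: it had 0.263 and 1.34 CPM in aCMs, against 29.1, 8.09 and 22.0 CPM in CSCs and was lower in aCMs (−4.54 ± 0.72).

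Of 30 genes of membrane excitability, 29 rose, with a median of 9.13. All 15 potassium channel genes rose. Kcnj2, a channel of the resting inward rectifier current, had 87.9 and 85.2 CPM in aCMs, against 0.0836, 0.0758 and 0.117 CPM in CSCs (9.87 ± 0.34), and Kcnj11, the pore of the ATP-sensitive channel, had 314 and 333 CPM in aCMs, against 0.0669, 0.0303 and 0.146 CPM in CSCs (12.09 ± 0.37). Kcnh2, of the rapid delayed rectifier, had 173 and 122 CPM in aCMs, against 9.58, 7.97 and 10.9 CPM in CSCs (3.96 ± 0.24). The pacemaker channel Hcn4 had 22.2 and 15.5 CPM in aCMs, against 0.452, 0.0303 and 0.0292 CPM in CSCs (6.68 ± 0.85). The T-type calcium channel Cacna1g went the other way, with 31.8 and 21.3 CPM in aCMs, against 191, 89.3 and 159.7 CPM in CSCs (−2.47 ± 0.34).

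At the intercalated disc and the muscle membrane, 17 of 19 genes rose and none fell, with a median of 8.85. The main ventricular gap junction gene Gja1 (connexin 43) had 1226 and 1009 CPM in aCMs, against 4.23, 29.1 and 13.2 CPM in CSCs (6.17 ± 0.67), and the desmosomal plaque protein Dsp had 1328 and 1207 CPM in aCMs, against 0.518, 0.333 and 0.585 CPM in CSCs (11.39 ± 0.34). Dystrophin, Dmd, had 306 and 138 CPM in aCMs, against 0.652, 0.212 and 0.526 CPM in CSCs (8.92 ± 0.52), and its aCM values differed more than 2-fold from each other. Gjc1 (connexin 45), with 32.9 and 29.0 CPM in aCMs, against 22.5, 49.8 and 29.8 CPM in CSCs, and vinculin, Vcl, with 128 and 100.1 CPM in aCMs, against 148, 238 and 71.1 CPM in CSCs, overlapped between the groups and were not called.

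Listed genes of mitochondrial energy supply had higher RNA levels, but mostly by smaller folds than contractile genes. All 34 nuclear genes of oxidative phosphorylation in the list rose, with a median of 3.17, against 24.2% of all tested genes called higher. The list does not hold every nuclear subunit. Sdha, the catalytic subunit of complex II, had 2116 and 1862 CPM in aCMs, against 222, 228 and 216 CPM in CSCs (3.16 ± 0.21), and the ATP synthase subunit Atp5b had 8087 and 7667 CPM in aCMs, against 767, 1209 and 976 CPM in CSCs (3.0 ± 0.27). In complex IV the general subunit Cox4i1 had 4593 and 4311 CPM in aCMs, against 304, 263 and 386 CPM in CSCs (3.81 ± 0.24). The muscle subunits Cox6a2 (12.58 ± 0.53), Cox7a1 (9.99 ± 0.55) and Cox8b (13.77 ± 0.35) lay far above all the other members, whose log2 fold changes ran from 2.20 to 3.98. The general forms of these subunits were not in the list. Of them Cox6a1, at −0.77, and Cox8a, at 0.13, were not called, while Cox7a2, at 2.61, was higher. The 13 mitochondrially encoded subunits were not analysed here. All 16 genes of the tricarboxylic acid cycle and pyruvate oxidation rose as well, with a median of 3.31. Among them Pdk4, which shuts pyruvate dehydrogenase off, had 184 and 511 CPM in aCMs, against 101, 74.6 and 47.1 CPM in CSCs (2.23 ± 0.40). Without aCM library 2 its log2 fold change was 1.26 and it was not called.

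All 26 listed genes of fatty acid use rose, with a median of 3.98. The list holds Cpt1b and Fabp3 but not their relatives Cpt1a, at 0.83, and Fabp5, at −0.33, which were not called. The heart fatty acid binding protein Fabp3 had 7143 and 6640.4 CPM in aCMs, against 1.19, 0.561 and 1.02 CPM in CSCs (12.87 ± 0.45), the fatty acid transporter Cd36 had 1999.6 and 2446 CPM in aCMs, against 1.22, 0.273 and 1.29 CPM in CSCs (11.26 ± 0.61), and lipoprotein lipase, Lpl, had 9384 and 12814 CPM in aCMs, against 8.41, 8.06 and 8.30 CPM in CSCs (10.39 ± 0.33). Ucp3, a mitochondrial carrier listed with beta-oxidation, had 105 and 167 CPM in aCMs, against 0.100, 0.0303 and 0.0292 CPM in CSCs (11.15 ± 0.75), and the import enzyme Cpt1b had 108 and 122 CPM in aCMs, against 0.100, 0.273 and 0.0877 CPM in CSCs (9.43 ± 1.29). The median was 10.39 over the 7 genes of uptake, storage and activation, 4.30 over the 4 of mitochondrial import and 3.70 over the 15 of beta-oxidation, among them Acadm at 2090.2 and 1684 CPM in aCMs, against 189, 94.8 and 151 CPM in CSCs (3.70 ± 0.30). Cd36 is also made by endothelial cells, whose transcripts were present in aCM libraries.

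Glycolysis moved less evenly, with 10 of 22 genes higher, 2 lower and 10 not called, and a median of 0.97. The insulin-responsive glucose transporter Slc2a4 had 1026 and 834 CPM in aCMs, against 0.452, 0.273 and 1.23 CPM in CSCs (10.58 ± 0.60), whereas the general transporter Slc2a1, with 62.0 and 45.4 CPM in aCMs, against 155, 90.1 and 60.4 CPM in CSCs, was not called. Ldhb, the heart form of lactate dehydrogenase, had 3484 and 3112 CPM in aCMs, against 34.2, 15.7 and 35.7 CPM in CSCs (6.85 ± 0.40). The ubiquitous enolase Eno1 was lower, with 173 and 184 CPM in aCMs, against 397, 1129 and 639 CPM in CSCs (−2.02 ± 0.38), as was Pgam1, with 12.1 and 9.78 CPM in aCMs, against 37.4, 91.6 and 22.3 CPM in CSCs (−2.21 ± 0.52). Of 13 nuclear receptors and coactivators that regulate metabolism, 9 rose and none fell. The coactivator Ppargc1a had 166 and 151 CPM in aCMs, against 0.301, 0.242 and 0.497 CPM in CSCs (8.89 ± 0.35), the nuclear receptor Esrrb had 60.2 and 57.3 CPM in aCMs, against 0.0334, 0.0455 and 0.0585 CPM in CSCs (10.26 ± 0.47) and Ppara had 14.8 and 24.2 CPM in aCMs, against 1.04, 0.682 and 1.90 CPM in CSCs (4.03 ± 0.50). Nrf1, Tfam, Ppard and Thra were not called.

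Many of these genes have a close relative, and 23 pairs of a heart or muscle member and another member were set side by side. In most pairs the other member is a general form or that of another tissue. Myl4, Myh7, Tnni1 and Lmod1 are muscle forms themselves, set against Myl2, Myh6, Tnni3 and Lmod2. The member set as the heart or muscle form rose in all 23 pairs. The members were chosen with earlier results of these data known, so this count is not independent evidence of direction. The other member was higher in 7, lower in 7 and not called in 9. Over all tested genes, 24.2% were called higher and 20.4% lower. In each pair the log2 fold change of the other member was the smaller one. The ribosomal protein Rpl3l, known from muscle, had 668 and 628 CPM in aCMs, against 0.218, 0.258 and 0.234 CPM in CSCs (11.39 ± 0.25), while its general relative Rpl3 had 91.2 and 123 CPM in aCMs, against 499, 677 and 771 CPM in CSCs (−2.60 ± 0.26). The same held for the elongation factors, with 2397 and 2497 CPM in aCMs, against 0.334, 0.303 and 0.322 CPM in CSCs for Eef1a2 (12.89 ± 0.29), and 803 and 1172 CPM in aCMs, against 4878, 8093 and 6298 CPM in CSCs for Eef1a1 (−2.70 ± 0.33). The muscle and general members thus moved in opposite directions in both of these pairs. They did so also for actin (Actc1 and Actb), tropomyosin (Tpm1 and Tpm4), enolase (Eno3 and Eno1) and phosphoglycerate mutase (Pgam2 and Pgam1). The cardiac and smooth muscle leiomodins, Lmod2 and Lmod1, also moved in opposite directions, where Lmod1 was not called without aCM library 1, at −2.16. Ckb, the brain creatine kinase, rose beside Ckm, with 60.2 and 73.6 CPM in aCMs, against 0.184, 0.0909 and 0.322 CPM in CSCs (8.49 ± 0.42). Reads of close relatives can be shared between them, so these counts carry that uncertainty.

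**Figure D3:**
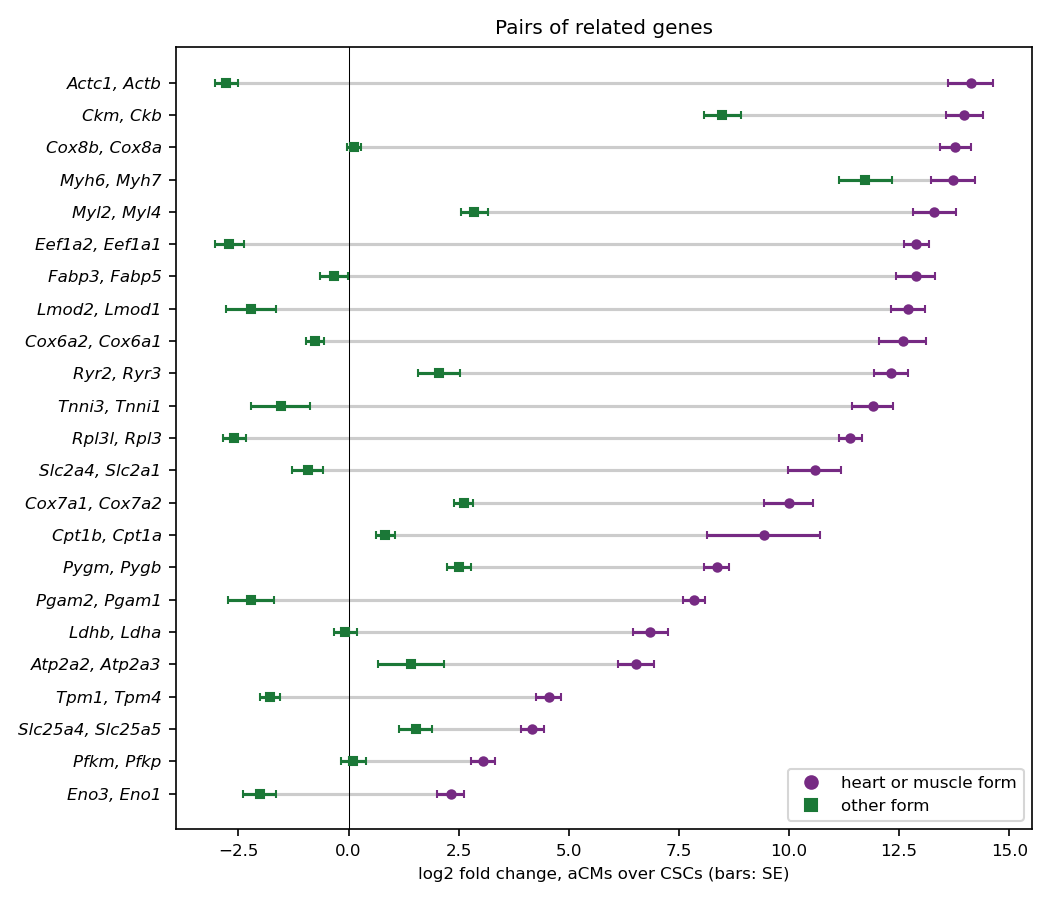
Log2 fold change of aCMs over CSCs, with SE bars, for the heart or muscle member and the other member of 23 gene pairs. The member set as the heart or muscle form lies to the right of the other member in all 23 pairs. Myl4, Myh7, Tnni1 and Lmod1, drawn as other members, are muscle forms too.

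Of 23 heart transcription factor genes, 18 rose, 1 fell and 4 were not called, with a median of 4.79. Some were well above 0 in CSCs. The zinc finger factor Gata4 had 152 and 121 CPM in aCMs, against 22.0, 31.4 and 16.6 CPM in CSCs (2.55 ± 0.26), and Mef2a had 257 and 218 CPM in aCMs, against 99.2, 86.4 and 61.2 CPM in CSCs (1.53 ± 0.22). Others were close to 0 there. Tbx5 had 46.5 and 41.8 CPM in aCMs, against 0.100, 0.0758 and 0.0585 CPM in CSCs (9.03 ± 0.33), Hand2 had 179 and 148 CPM in aCMs, against 0.100, 0.0909 and 0.0877 CPM in CSCs (10.71 ± 0.28), and the homeobox factor Nkx2-5 had 149 and 196 CPM in aCMs, against 2.56, 0.758 and 0.672 CPM in CSCs (6.99 ± 0.55). Myocd (myocardin), a coactivator of serum response factor, had 206 and 206 CPM in aCMs, against 0.167, 0.197 and 0.117 CPM in CSCs (10.24 ± 0.30), and Mef2c had 116 and 109.7 CPM in aCMs, against 6.37, 5.41 and 6.84 CPM in CSCs (4.18 ± 0.19). Isl1, a marker of second heart field progenitors, was the one that fell, with 0.526 and 0.192 CPM in aCMs, against 5.59, 7.09 and 7.54 CPM in CSCs (−4.29 ± 0.60). Meis1 and Tead1 were among the 4 not called.

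Among cardiac hormones and receptors 9 of 12 rose and 1 fell. The natriuretic peptide genes differed between the aCM libraries, Nppa with 93.6 and 367 CPM in aCMs, against 0.184, 0.242 and 0.468 CPM in CSCs (9.67 ± 0.69) and Nppb with 165 and 399.9 CPM in aCMs, against 0.402, 0.682 and 0.556 CPM in CSCs (9.0 ± 0.75). Corin, the protease that activates them, had 546 and 443 CPM in aCMs, against 0.0836, 0.121 and 0.0585 CPM in CSCs (12.32 ± 0.30). The clearance receptor Npr3 was lower, with 4.60 and 14.2 CPM in aCMs, against 162, 227 and 219.7 CPM in CSCs (−4.41 ± 0.43). The beta-1 adrenergic receptor Adrb1 had 44.3 and 41.9 CPM in aCMs, against 0.0669, 0.0758 and 0.0877 CPM in CSCs (9.08 ± 0.37), and the muscarinic receptor Chrm2 had 206 and 125 CPM in aCMs, against 0.0502, 0.0909 and 0.0877 CPM in CSCs (11.03 ± 0.54).

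Of 13 muscle proteostasis genes 12 rose, with a median of 5.77. The muscle ubiquitin ligase Trim63 had 453 and 374 CPM in aCMs, against 0.201, 0.0909 and 0.322 CPM in CSCs (11.07 ± 0.48), and the small heat shock protein Hspb7 had 4007 and 4203 CPM in aCMs, against 2.96, 3.23 and 3.68 CPM in CSCs (10.29 ± 0.30). Of 10 splicing regulators 5 rose, 1 fell and 4 were not called. Rbm20, which controls titin splicing, had 263 and 254 CPM in aCMs, against 6.99, 6.74 and 5.70 CPM in CSCs (5.32 ± 0.24), and Rbm24 had 415 and 322 CPM in aCMs, against 0.100, 0.0909 and 0.0585 CPM in CSCs (11.99 ± 0.38). The splicing repressor Ptbp1 had 38.9 and 44.5 CPM in aCMs, against 172, 416 and 137 CPM in CSCs (−2.54 ± 0.44).

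Of 34 mitosis genes none rose and 32 fell, with a median of −5.33, against 20.4% of all tested genes called lower. The mitotic kinase Cdk1 had 1.45 and 2.20 CPM in aCMs, against 20.5, 141 and 69.7 CPM in CSCs (−5.37 ± 0.84), and its partner cyclin B1, Ccnb1, had 0.263 and 1.53 CPM in aCMs, against 9.77, 111 and 44.1 CPM in CSCs (−5.83 ± 1.21). Topoisomerase Top2a, which untangles chromosomes, had 5.52 and 4.02 CPM in aCMs, against 37.5, 478 and 274 CPM in CSCs (−5.80 ± 1.01), and the proliferation antigen Mki67 had 6.70 and 4.5 CPM in aCMs, against 14.4, 233 and 116 CPM in CSCs (−4.44 ± 1.03). In all 4 genes every CSC library lay above both aCM libraries, with CSC library 1 far below the other two. The sum over the list was 164.6 and 180 CPM in aCMs, against 448, 4976 and 2309 CPM in CSCs. The falls are thus means over cultures that differed widely among themselves in these genes. Without CSC library 2 the count was 31 and without either aCM library it was 30. The members not called were the centromere genes Cenpa, with 43.6 and 59.5 CPM in aCMs, against 9.30, 85.9 and 58.4 CPM in CSCs, and Cenpf, with 35.9 and 31.0 CPM in aCMs, against 8.53, 154 and 69.0 CPM in CSCs. Without CSC library 1 Cenpf was called lower, at −1.73.

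Of 34 DNA replication genes, 27 fell, with a median of −2.64. The helicase subunit Mcm6 had 9.46 and 13.3 CPM in aCMs, against 67.1, 332 and 118 CPM in CSCs (−3.91 ± 0.63), the clamp loader Rfc3 had 5.39 and 4.02 CPM in aCMs, against 28.0, 62.4 and 34.2 CPM in CSCs (−3.15 ± 0.39), and the polymerase clamp Pcna had 32.3 and 33.1 CPM in aCMs, against 72.7, 319.5 and 122 CPM in CSCs (−2.39 ± 0.53). Geminin, Gmnn, which blocks a second round of origin licensing, was the only one that rose, with 69.7 and 71.5 CPM in aCMs, against 11.4, 37.6 and 26.0 CPM in CSCs (1.5 ± 0.39). Without CSC library 1 it was no longer called, with a log2 fold change of 1.16.

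Promoters of the mitosis genes are shown because the list fell almost as a whole. The CHR motif, searched as TTTGAA on both strands, stood in 23 of the 30 mitosis promoters matched (76.7%), against 14.9% of all 13008. The CCAAT box also stood in 23 of the 30 (76.7%), against 42.2% of all. Neither motif contains the other, but matches of the 2 can share a base where they meet. Both were held by 20 of the 30 (66.7%), against 6.07% of all tested genes and 8.33% of the genes called lower. The E2F motif, searched as TTNGCGC, stood in 11 of 28 DNA replication promoters (39.3%), against 11.4% of all. The last 100 bases before the start are given in the direction of transcription, with CHR and CCAAT in capitals for Cdk1 and Top2a and with 2 overlapping E2F matches in capitals for Mcm6.
Cdk1 (chr10:69352913-69353012, minus strand): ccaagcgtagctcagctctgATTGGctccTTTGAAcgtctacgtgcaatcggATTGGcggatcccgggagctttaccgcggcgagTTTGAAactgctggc
Top2a (chr11:99024190-99024289, minus strand): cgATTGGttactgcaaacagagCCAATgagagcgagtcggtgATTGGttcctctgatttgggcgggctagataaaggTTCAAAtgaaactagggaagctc
Mcm6 (chr1:128359706-128359805, minus strand): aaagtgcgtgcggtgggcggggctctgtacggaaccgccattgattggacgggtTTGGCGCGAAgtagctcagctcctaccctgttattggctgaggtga
Cdk1 and Top2a each hold 4 matches in this window. The matches are letters in a fixed window and were not tested for use in these cells.

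Control of the G1 and S phases moved in both directions, with 1 of 27 genes higher, 13 lower and 13 not called. Cdk4, which with D cyclins starts the cycle, had 98.0 and 94.4 CPM in aCMs, against 369, 353 and 323 CPM in CSCs (−1.86 ± 0.18), and Cdk6 had 10.9 and 15.2 CPM in aCMs, against 41.4, 80.5 and 33.8 CPM in CSCs (−1.99 ± 0.38). Cdk14 had 4.34 and 6.23 CPM in aCMs, against 69.2, 93.0 and 59.2 CPM in CSCs (−3.79 ± 0.32). The D cyclin genes Ccnd1, with 109 and 87.7 CPM in aCMs, against 137, 358 and 183 CPM in CSCs, and Ccnd2, with 223 and 196 CPM in aCMs, against 104, 257 and 129 CPM in CSCs, were not called, although Ccnd1 was called lower without CSC library 1, at −1.45. Of the E2F family, E2f1, an activator of S phase genes, had 5.26 and 5.94 CPM in aCMs, against 47.1, 64.0 and 66.6 CPM in CSCs (−3.40 ± 0.27), and E2f3 had 13.4 and 15 CPM in aCMs, against 40.7, 43.2 and 26.3 CPM in CSCs (−1.37 ± 0.26). E2f5 had 3.42 and 4.89 CPM in aCMs, against 7.38, 15.6 and 8.86 CPM in CSCs (−1.35 ± 0.39). Both E2f3 and E2f5 lay close to the fold threshold. E2f3 was not called without CSC library 1 (−1.28), CSC library 2 (−1.23) or aCM library 1 (−1.31), nor was E2f5 without CSC library 2 (−0.95) or aCM library 1 (−1.14). Among the pocket proteins Rbl1 (p107) was lower, with 2.10 and 4.41 CPM in aCMs, against 6.84, 43.6 and 11.9 CPM in CSCs (−2.65 ± 0.77), while Rb1, with 27.7 and 39.9 CPM in aCMs, against 23.2, 14.9 and 19.7 CPM in CSCs, and Rbl2 (p130), with 54.6 and 39.96 CPM in aCMs, against 64.3, 61.2 and 40.03 CPM in CSCs, were not called. Without aCM library 1 Rbl1 was not called either, at −2.25.

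The kinase inhibitors, which oppose these kinases, were divided. Cdkn1c (p57), an imprinted inhibitor, had 54.2 and 67.2 CPM in aCMs, against 0, 0.0303 and 0 CPM in CSCs, a ratio of 4934-fold (1363 to 40793), while Cdkn2a led the falls and its neighbour Cdkn2b (p15) had 0.657 and 1.05 CPM in aCMs, against 96.5, 68.1 and 89.3 CPM in CSCs (−6.59 ± 0.38). The CSC libraries with high mitosis sums and the one with a low sum all held Cdkn2a at 212 CPM or more. Cdkn1a (p21), with 26.3 and 80.9 CPM in aCMs, against 17.2, 26.3 and 22.1 CPM in CSCs, and Cdkn1b (p27), with 62.7 and 66.7 CPM in aCMs, against 112, 105 and 111 CPM in CSCs, were not called. Cdkn1a was called higher without aCM library 1, at 1.87, and without CSC library 2, at 1.46, and the list then held 3 genes called higher.

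Among 21 epigenetic regulators 3 rose and 8 fell. The maintenance methylation cofactor Uhrf1 had 4.60 and 2.11 CPM in aCMs, against 13.5, 115 and 45.0 CPM in CSCs (−4.14 ± 0.92), and the deacetylase Hdac1 had 22.7 and 22.0 CPM in aCMs, against 156, 164 and 144 CPM in CSCs (−2.79 ± 0.18). Tet1, which oxidises methylcytosine, was higher, with 5.00 and 6.52 CPM in aCMs, against 0.301, 0.242 and 0.468 CPM in CSCs (4.11 ± 0.44), and Hdac9 had 24.6 and 23.7 CPM in aCMs, against 0.0502, 0.0152 and 0.0877 CPM in CSCs (8.94 ± 0.49).

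Extracellular matrix genes were lower, with 23 of 35 down, 5 up and a median of −3.70. The collagen Col3a1 had 60.6 and 139.6 CPM in aCMs, against 8529, 2843 and 5217 CPM in CSCs (−5.79 ± 0.60), and fibronectin, Fn1, had 34.4 and 47.4 CPM in aCMs, against 4142, 2645 and 1946 CPM in CSCs (−6.15 ± 0.43). The proteoglycan versican, Vcan, had 3.68 and 6.71 CPM in aCMs, against 581, 528 and 426 CPM in CSCs (−6.60 ± 0.35). Every CSC library lay above both aCM libraries in each of these. The 2 chains of type I collagen differed: Col1a1 had 29.7 and 68.7 CPM in aCMs, against 4409, 3177 and 4607 CPM in CSCs (−6.36 ± 0.46), whereas Col1a2 had 24.7 and 57.9 CPM in aCMs, against 5.60, 26.8 and 16.4 CPM in CSCs and was not called (1.35 ± 0.54). Col1a2 was called higher without aCM library 1, at 1.82, and without CSC library 2, at 1.93. The 5 genes that went the other way were Dcn, Lum, Postn, Loxl2 and Mmp3, with Dcn at 184 and 242 CPM in aCMs, against 84.7, 20.2 and 68.0 CPM in CSCs (1.89 ± 0.46) and Lum at 14.6 and 27.5 CPM in aCMs, against 2.34, 0.258 and 3.51 CPM in CSCs (3.40 ± 0.76). Without aCM library 2 they were 3, since Postn (1.31) and Mmp3, which had 0 and 1.15 CPM in aCMs, against 0.134, 0.106 and 0.117 CPM in CSCs, were no longer called. Mmp3 was also lost without any one of the CSC libraries. The basement membrane collagens Col4a1 and Col4a2 were not called.

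Of 15 mesenchymal markers 11 fell and 2 rose. Vimentin, Vim, had 177 and 278 CPM in aCMs, against 2751, 5633 and 4169.8 CPM in CSCs (−4.20 ± 0.40), S100a4 had 3.02 and 5.56 CPM in aCMs, against 1608, 829 and 1441 CPM in CSCs (−8.21 ± 0.51), and Snai1 had 1.05 and 2.01 CPM in aCMs, against 119.9, 100.4 and 84.1 CPM in CSCs (−6.01 ± 0.37). The markers that rose were Thy1, with 11.3 and 10.5 CPM in aCMs, against 0.0167, 0.0303 and 0.0877 CPM in CSCs (8.01 ± 0.60), and the cardiac fibroblast factor Tcf21, with 1.97 and 1.25 CPM in aCMs, against 0 CPM in all 3 CSC libraries, at least 82.8-fold. The CSC profile was thus high for most mesenchymal genes, with Tcf21, Thy1 and Col1a2 low. Of 8 stem cell markers tested, 4 were higher in aCMs (Kit, Cd34, Nes and Pou5f1) and none lower. Cd34, which endothelial cells also carry, had 117 and 163 CPM in aCMs, against 1.14, 1.17 and 1.70 CPM in CSCs (6.73 ± 0.26), and Ly6a (Sca-1), with 126 and 152 CPM in aCMs, against 197, 511 and 283 CPM in CSCs, was not called. Without CSC library 1 or 3 Ly6a was called lower, at −1.51 and −1.34, and without library 1 a further marker was called lower too. Of 6 oncofetal genes 4 fell, 1 rose and 1 was not called. Igf2bp1 fell, with 2.23 and 1.44 CPM in aCMs, against 53.2, 76.6 and 53.8 CPM in CSCs (−5.08 ± 0.32). So did Hmga2, with 2.5 and 1.44 CPM in aCMs, against 17.5, 64.4 and 18.6 CPM in CSCs (−4.12 ± 0.68).

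The non-muscle cytoskeleton was lower, with 14 of 16 genes down and a median of −2.23. Beta actin, Actb, had 635 and 766 CPM in aCMs, against 4157, 5012 and 5168 CPM in CSCs (−2.77 ± 0.26), and alpha-actinin 1, Actn1, had 30.0 and 29.5 CPM in aCMs, against 282, 405 and 285 CPM in CSCs (−3.45 ± 0.24). Synthesis pathways fell too. Of 18 genes of serine, one-carbon and nucleotide synthesis 12 were lower, led by Phgdh, the entry enzyme of serine synthesis, with 0.526 and 2.30 CPM in aCMs, against 150.1, 391 and 268 CPM in CSCs (−7.49 ± 0.62), and by Psat1, with 3.94 and 4.5 CPM in aCMs, against 122, 496 and 199 CPM in CSCs (−6.00 ± 0.63). Of 23 genes of sterol and fatty acid synthesis 17 were lower, with a median of −2.98. Squalene epoxidase, Sqle, had 5.52 and 6.90 CPM in aCMs, against 178, 192 and 222 CPM in CSCs (−4.98 ± 0.23), and the desaturase Scd2 had 19.4 and 21.4 CPM in aCMs, against 1776, 1719 and 1439.6 CPM in CSCs (−6.33 ± 0.26). The sterol regulator Srebf2 was lower, with 38.6 and 35.0 CPM in aCMs, against 333, 309.6 and 286 CPM in CSCs (−3.07 ± 0.20), while Srebf1, with 35.5 and 58.5 CPM in aCMs, against 63.6, 58.2 and 48.1 CPM in CSCs, was not called. None of the genes of these 3 lists rose, except that 1 cytoskeletal gene was called higher without CSC library 3.

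**Figure D4:**
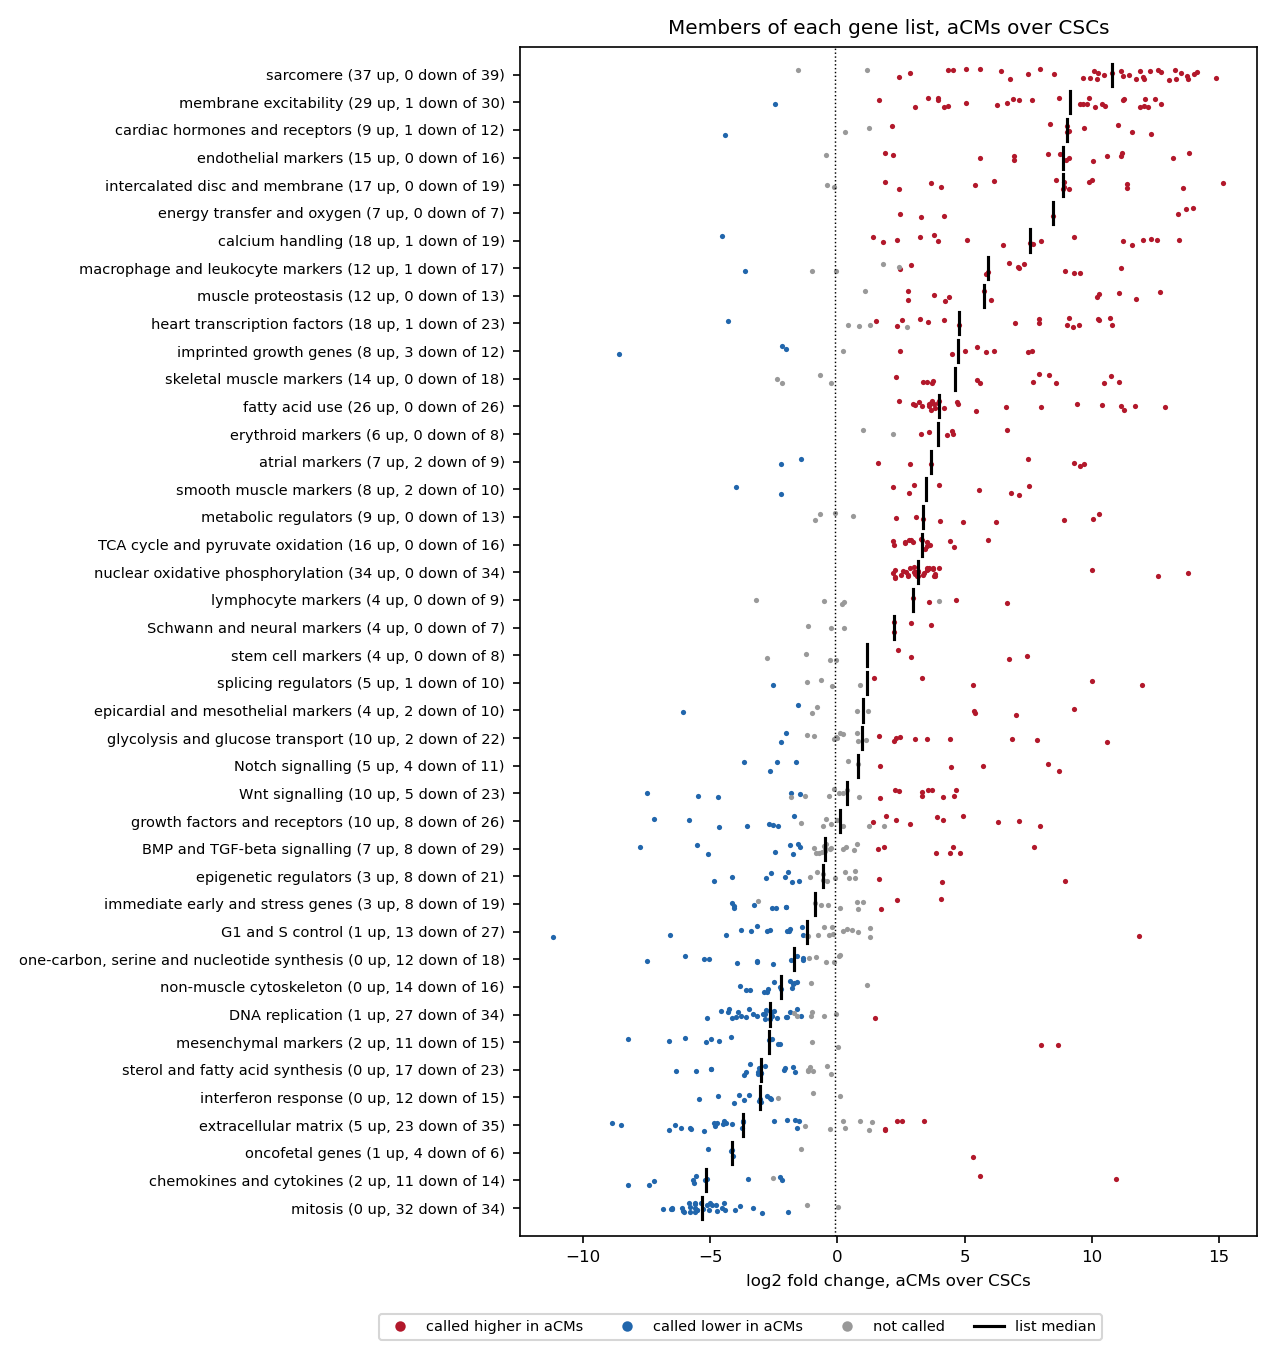
Log2 fold change of aCMs over CSCs for every tested member of each gene list with at least 6 tested members, with the list median as a bar and the median of all tested genes (−0.10) as a dotted line. Sarcomere genes lie highest (median 10.80) and mitosis genes lowest (median −5.33).

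The signalling lists had no common direction, with medians between −0.48 and 0.80. In the BMP and TGF-beta list 7 of 29 genes rose and 8 fell. Bmp4 had 3.02 and 3.45 CPM in aCMs, against 123, 110.3 and 96.7 CPM in CSCs (−5.08 ± 0.30), and Bmp6 had 17.5 and 24.2 CPM in aCMs, against 1.12, 0.591 and 1.23 CPM in CSCs (4.42 ± 0.36). Bmp10, known from atrial muscle, had 2.37 and 1.63 CPM in aCMs, against 0.853, 0.303 and 0.848 CPM in CSCs (1.58 ± 0.53). It was not called without aCM library 1 (1.28), aCM library 2 (1.79) or CSC library 2 (1.21). The BMP antagonist Grem1 had 0.394 and 0.383 CPM in aCMs, against 115, 79.1 and 60.6 CPM in CSCs (−7.76 ± 0.44), whereas Bambi, a decoy receptor, had 36.8 and 33.0 CPM in aCMs, against 0.0836, 0.106 and 0.351 CPM in CSCs (7.74 ± 0.45). Of 7 receptor genes 6 were not called, as was Smad1, with 12.5 and 20.3 CPM in aCMs, against 23.8, 29.7 and 15.5 CPM in CSCs.

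Of 23 Wnt genes 10 rose and 5 fell. The ligands Wnt5a, with 16.8 and 16.2 CPM in aCMs, against 1.57, 1.91 and 1.46 CPM in CSCs (3.32 ± 0.29), and Wnt11, with 10.4 and 8.24 CPM in aCMs, against 0.385, 0.273 and 0.439 CPM in CSCs (4.67 ± 0.41), were higher. Wnt10b was lower, with 0 and 0.288 CPM in aCMs, against 4.94, 3.85 and 4.06 CPM in CSCs, a ratio of 25.9-fold (8.81 to 126), as was the receptor Fzd2, with 5.00 and 5.85 CPM in aCMs, against 325, 176 and 221 CPM in CSCs (−5.46 ± 0.35). Among growth factors and their receptors 10 of 26 rose and 8 fell. Fgf1 had 371 and 331 CPM in aCMs, against 2.86, 1.03 and 3.77 CPM in CSCs (7.12 ± 0.46) and the vascular growth factor Vegfb had 869 and 769 CPM in aCMs, against 48.4, 37.4 and 52.4 CPM in CSCs (4.15 ± 0.21), while Fgf7 had 3.15 and 1.44 CPM in aCMs, against 352, 449 and 198 CPM in CSCs (−7.22 ± 0.52). Of the neuregulin pair, the ligand Nrg1 was lower, with 0.263 and 0.479 CPM in aCMs, against 23.7, 30.4 and 12.2 CPM in CSCs (−5.84 ± 0.55), and its receptor Erbb4 was higher, with 15.9 and 12.1 CPM in aCMs, against 1.05, 0.136 and 0.146 CPM in CSCs (4.92 ± 0.76). Of 11 Notch genes 5 rose and 4 fell. Jag1 had 11 and 19.2 CPM in aCMs, against 224, 164 and 194 CPM in CSCs (−3.68 ± 0.29), the endothelial ligand Dll4 had 19.6 and 28.1 CPM in aCMs, against 0.201, 0 and 0 CPM in CSCs (8.26 ± 0.79), and Notch1, with 18.7 and 31.5 CPM in aCMs, against 18.6, 17.9 and 20.4 CPM in CSCs, was not called.

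Of 14 chemokines and cytokines 11 were lower and 2 higher. The monocyte chemokine Ccl2 had 1.18 and 1.53 CPM in aCMs, against 267, 318 and 119.5 CPM in CSCs (−7.41 ± 0.55), and Ccl7 had 0.789 and 1.05 CPM in aCMs, against 163, 137 and 112 CPM in CSCs (−7.19 ± 0.35). Cxcl12 was higher, with 236 and 254 CPM in aCMs, against 0.117, 0.0909 and 0.175 CPM in CSCs (10.94 ± 0.28). Of 12 imprinted growth genes 8 rose and 3 fell. Grb10, an inhibitor of growth factor receptors, had 101 and 115 CPM in aCMs, against 0.452, 0.727 and 0.585 CPM in CSCs (7.50 ± 0.24), and Plagl1 had 7.89 and 5.85 CPM in aCMs, against 0.134, 0.0303 and 0.234 CPM in CSCs (5.82 ± 0.47). Peg10, described above, and Sgce, its neighbour, were among those that fell, Sgce with 15.9 and 12.2 CPM in aCMs, against 86.6, 45.8 and 57.1 CPM in CSCs (−2.17 ± 0.30).

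Of 15 interferon response genes 12 were lower and none higher, with a median of −3.06. These genes were uneven among the CSC libraries: the sum over the list was 293.5 and 294 CPM in aCMs, against 858, 4055 and 818 CPM in CSCs. Isg15, a ubiquitin-like modifier, had 5.52 and 6.23 CPM in aCMs, against 156, 483 and 135 CPM in CSCs (−5.45 ± 0.62), and Ifit1 had 17.1 and 14.2 CPM in aCMs, against 70.9, 341 and 105 CPM in CSCs (−3.46 ± 0.64). The count was 8 without CSC library 2, 5 without aCM library 1 and 6 without aCM library 2. The motif of the interferon-stimulated response element, searched as GAAA, any 2 bases and GAAA again on both strands, stood in 7 of the 10 promoters matched (70.0%), against 3.83% of all 13008. The Isg15 promoter is shown because its 3 overlapping matches form 1 block, in capitals.
Isg15 (chr4:156200819-156200918, minus strand): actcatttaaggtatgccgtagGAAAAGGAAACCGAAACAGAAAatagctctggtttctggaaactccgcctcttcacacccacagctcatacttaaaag
The window ends at the last base before the start.

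Immediate early and stress genes, which respond to handling and growth signals, gave 3 of 19 higher and 8 lower. Myc had 4.21 and 5.46 CPM in aCMs, against 56.8, 147 and 43.6 CPM in CSCs (−4.08 ± 0.54), Junb had 15.9 and 27.0 CPM in aCMs, against 346, 170 and 112 CPM in CSCs (−3.28 ± 0.48), and Fos, with 2.37 and 4.31 CPM in aCMs, against 81.5, 3.92 and 2.16 CPM in CSCs, was high in CSC library 1 alone and was not called. Fos was called lower without CSC library 2, at −3.61, and without CSC library 3, at −3.64. The heat shock gene Hspa1a, which has a near-identical neighbour in Hspa1b, had 2.10 and 5.94 CPM in aCMs, against 0.385, 0.227 and 0.0585 CPM in CSCs (4.08 ± 0.61). Without CSC library 1 the list gave 6 higher and 6 lower, and without aCM library 1 it gave 2 higher and 5 lower.

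**Figure D5:**
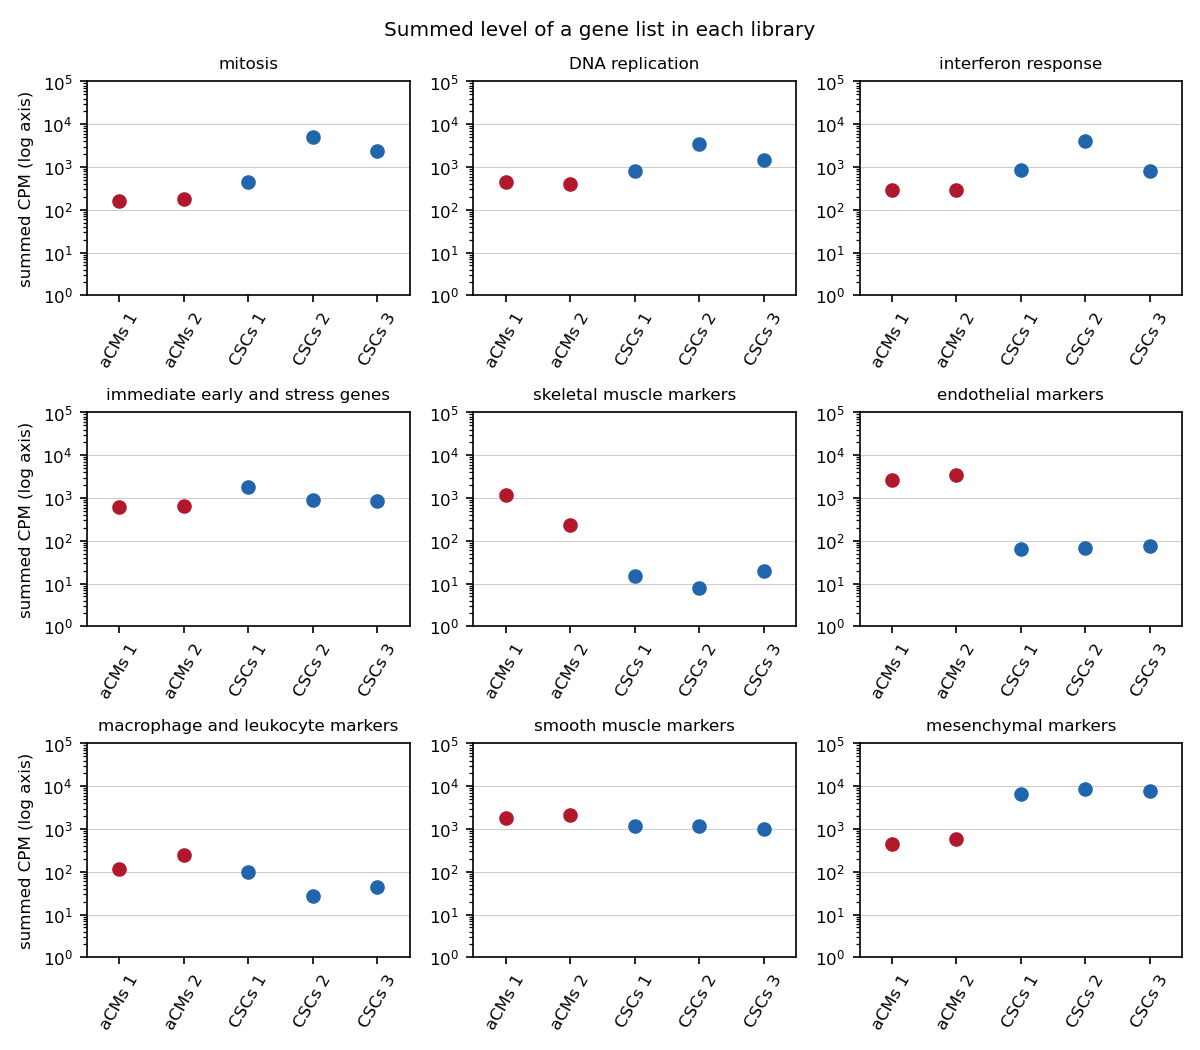
Summed CPM (log axis) of 9 gene lists in each library. Mitosis genes sum to 165 and 180 CPM in aCMs and to 448, 4976 and 2309 CPM in CSCs, and endothelial markers to 2609 and 3509 CPM in aCMs and 65.3 to 76.4 CPM in CSCs.

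Markers of other heart cells were present in the aCM libraries. Of 16 endothelial markers 15 were higher, with a median of 8.87 and a summed level of 2609 and 3509 CPM in aCMs, against 65.3, 67.3 and 76.4 CPM in CSCs. Cadherin 5, Cdh5, had 238 and 280.3 CPM in aCMs, against 0.201, 0.136 and 0.146 CPM in CSCs (10.61 ± 0.25), and Kdr, a receptor for vascular growth factor, had 217 and 329 CPM in aCMs, against 0, 0.0303 and 0.0585 CPM in CSCs (13.20 ± 0.46). Of 10 smooth muscle and mural markers 8 were higher and 2 lower, and the pericyte marker Rgs5 had 932 and 1240.5 CPM in aCMs, against 16.9, 2.18 and 4.09 CPM in CSCs (7.13 ± 0.78). The list summed to 1812 and 2151 CPM in aCMs, against 1149.8, 1208 and 993 CPM in CSCs. Rgs5 alone held a large part of the aCM sums, so they say little of the other markers. Of 17 macrophage and leukocyte markers 12 were higher, 1 was lower and 4 were not called. The list summed to 118 and 241.5 CPM in aCMs and to 99.5, 26.9 and 45.1 CPM in CSCs. Among those higher was C1qa, at 16.2 and 29.1 CPM in aCMs, against 0.0167, 0 and 0 CPM in CSCs. Summed lymphocyte markers were 9.86 and 7.28 CPM in aCMs and 1.20 to 2.01 CPM in CSCs. Summed erythroid markers were 39.0 and 18.1 CPM in aCMs and 0.621 to 2.87 CPM in CSCs. Epicardial markers gave 4 of 10 higher and 2 lower, Schwann and neural markers 4 of 7 higher, and atrial markers 7 of 9 higher and 2 lower. Of 6 adipocyte markers 2 could be tested and neither was called. Among epicardial markers mesothelin, Msln, was lower in aCMs, with 3.55 and 2.20 CPM in aCMs, against 208, 171 and 187 CPM in CSCs (−6.06 ± 0.38). Without aCM library 2 a single Schwann marker was called, and without aCM library 1 there were 2 lymphocyte markers in place of 4. The part that such cells play in the genes called higher was not tested. In these bulk libraries fewer cells of a type and less RNA per cell cannot be told apart.

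The aCM libraries also differed from each other in a few genes. Of 10369 genes above a mean of 3 log2 CPM in aCMs, 35 (0.338%) differed more than 4-fold between the pair. The skeletal muscle calcium channel Ryr1 had 569 and 0.575 CPM in aCMs, against 1.67, 0.849 and 1.70 CPM in CSCs, nebulin, Neb, had 742 and 7.19 CPM in aCMs, against 3.56, 3.55 and 4.97 CPM in CSCs, and the fast skeletal myosin Myh1 had 94.0 and 1.72 CPM in aCMs, against 0.0167, 0.0303 and 0 CPM in CSCs. These were high in aCM library 1 alone, and without it the log2 fold change was −1.30 for Ryr1 and 0.82 for Neb, neither called. Skeletal markers summed to 1184 and 232 CPM in aCMs, against 15.2, 7.67 and 20.1 CPM in CSCs, and 14 of 18 tested were called higher. Other defining markers of fast skeletal muscle were at or near 0 in both aCM libraries: Mylpf had 0.394 and 1.63 CPM, Tnnt3 had 0 and 0.671 CPM, Actn3 had 0.131 and 0.192 CPM, and Pvalb had 0 in both. Higher in aCM library 2 were Angptl4, with 3.55 and 42.1 CPM in aCMs, against 33.8, 18.7 and 16.0 CPM in CSCs, and Nppa. Transcripts of the Y chromosome were high in that library alone, with 0.263 and 35.3 CPM in aCMs, against 0, 0.0303 and 0 CPM in CSCs for Ddx3y, and Xist had 125 and 68.8 CPM in aCMs, against 602, 635 and 562 CPM in CSCs. The labels do not give the sex of the animals.

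Among the CSC libraries 370 of 10154 genes (3.64%) spanned more than 4-fold. Library 1 was set apart by low mitosis genes and by high Fos, Agt and Ranbp3l, with 0.263 and 0.192 CPM in aCMs, against 151, 1.88 and 4.74 CPM in CSCs for Ranbp3l and 11 and 11.2 CPM in aCMs, against 289, 10.4 and 107 CPM in CSCs for Agt. Library 2 was set apart by high interferon genes, with 1.58 and 2.30 CPM in aCMs, against 4.37, 149.6 and 7.69 CPM in CSCs for Oas1g and 11 and 16.8 CPM in aCMs, against 4.23, 116 and 8.42 CPM in CSCs for Cmpk2. Library 3 was high in Aldh1a7, with 0.394 and 0.288 CPM in aCMs, against 54.6, 17.7 and 126 CPM in CSCs, and low in C4b, with 2.89 and 8.91 CPM in aCMs, against 53.3, 16.5 and 5.85 CPM in CSCs. Ranbp3l, Agt, Oas1g and C4b were called lower and were no longer called without either aCM library, at −8.10 and −7.67 for Ranbp3l, −3.62 and −3.67 for Agt, −4.55 and −5.14 for Oas1g and −1.53 and −3.18 for C4b, without aCM library 1 and 2 in that order. C4b was also lost without CSC library 1, at −0.89. Genes called in this comparison that differ so among the cultures rest on means of unequal libraries.

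A list of 176 cell cycle and heart genes that the study assembled on these samples gave 94 higher, 62 lower and 20 not called, which is not independent evidence of direction. Its 100 cell cycle genes split into 31 higher and 56 lower, with a median of −2.64, and 27 of its 29 genes shared between cardiac processes and heart development rose, with a median of 11.59. Among the genes the study names that no list above held, Foxo4, a transcription factor of the forkhead family, had 71.4 and 81.2 CPM in aCMs, against 27.9, 17.4 and 23.1 CPM in CSCs (1.74 ± 0.22), Cxcr4, the receptor for Cxcl12, had 10.6 and 13.1 CPM in aCMs, against 0, 0.0303 and 0 CPM in CSCs, and Myo18b, a sarcomere-associated myosin, had 606 and 679.7 CPM in aCMs, against 1.17, 0.364 and 1.52 CPM in CSCs (9.34 ± 0.57). The epicardial factor Wt1 had 10.1 and 9.87 CPM in aCMs, against 0.117, 0.212 and 0.409 CPM in CSCs (5.42 ± 0.41).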

How the data were processed

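Total RNA was depleted of ribosomal RNA, made into libraries with the TruSeq kit and sequenced as 100 bp paired-end reads. The authors aligned and counted the reads with Strand NGS on mm10 with Ensembl genes, and the deposited estimated counts, 51.4% of which were not whole, were rounded to whole numbers here. The 956 entries outside the annotation held 0.147% of the counts. The 8 small RNA samples were not used. Counts were tested with edgeR 4.0.16 (R 4.3.3, limma 3.58.1): filterByExpr, TMM scaling, and the quasi-likelihood test with Benjamini-Hochberg adjustment over all 20254 tested genes, in a fit shared by the 8 total RNA libraries (2 aCMs, 3 CSCs and 3 CSC-derived cardiomyocytes). A call needed a fold of at least 2.5, the study's own limit, with an adjusted p below 0.05. SE is the log2 fold change divided by the square root of the F statistic. Log2 CPM used a prior count of 2. Against a group with 0 counts the fold is a bound at 3 counts over the group, and with 1 to 3 counts it is a ratio with an exact 95% interval.

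The genes named were the 15 largest rises and 15 deepest falls (mean log2 CPM of at least 5 in the higher group, groups without overlap, no gene models or ribosomal RNA), members of 45 gene lists and 23 gene pairs, genes the study names, and the 5 genes that differed most each way between replicates. The members and lists were chosen with earlier results of these data known. Lists were described by counts and medians, without a set test. Steps were tested on simulated counts. Depth was 11114519 to 14589730 counts in aCMs and 29868771 to 63238429 in CSCs, so low genes are less precise in aCMs. The alternatives tried were DESeq2 1.42.0, its size factors, library totals, other filters, the 5 libraries alone, a replicate block and leaving out each library. The aCMs are described as pools of hearts and the CSCs as cultures of 1 clone, so numbers were not taken as pairs. Deviations of same-numbered libraries had r of −0.013 and 0. This cannot decide on pairing, because the deviations of 2 aCM libraries mirror each other. Promoters came from RefSeq (GRCm38.p6), and 8 motifs were searched in 300 bases on both strands. Each gene was counted once if any of its promoters held the motif.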

Additional observations from a re-analysis of the deposited data

How the results depend on the processing

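No gene called in one direction was called in the other under any setting of the whole fit. The genes called higher and lower were 5019 and 3963 with DESeq2 (53 genes without an adjusted p), 4993 and 4003 with DESeq2's size factors in edgeR, 5018 and 4863 without a filter, 4424 and 3680 with a CPM of at least 1 in at least 2 libraries, 4644 and 4034 with the filter set on the 5 libraries, and 4455 and 4027 with only those in the fit. With scaling to library totals alone the median of all tested genes moved to −0.76 and the counts were 3816 and 6695, so that 36.3% of calls were higher in place of 54.2%. Leaving out each library in turn gave 4417 to 4842 higher and 3535 to 4049 lower, where a lone aCM library is assumed to vary like the other groups. With a replicate block the counts were 4843 and 3929, a fit in which the shared numbers are not known to pair the samples. Of 90 counts of list members, 67 stayed within 1.5 times in every setting, and of 230 genes named, 198 kept their call in every setting that gave them an adjusted p. Under library totals alone Gmnn, Dcn, Mef2a, Foxo4, Postn and Bmp10 were no longer called. Uncalled values near 0 could change sign, such as Ccnd2 (0.36, and −0.28 under library totals). A value called in at least 1 fit changed sign in 3 genes: Ryr1 was at −1.30 without aCM library 1 and at 8.62 without aCM library 2, Angptl4 at 0.86 and −2.74, and Mmp3 at 3.22 and −5.12 in the same order. The cause was not tested. Leaving out mitochondrially encoded genes was planned and not run, since none was in the table used. The smaller depth of aCMs limits what can be said of genes near 0 there.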

Other observations

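The motifs searched for the promoters shown were also counted in the other lists, as descriptions without a test. The E2F motif TTNGCGC stood in the promoters of 7 of 20 G1 and S control genes (35.0%), against 11.4% of all 13008 genes. It also stood in those of 8 of 23 oxidative phosphorylation genes (34.8%). The medians of those lists had opposite signs. The CCAAT box stood in 13 of 15 promoters of sterol and fatty acid synthesis genes (86.7%), against 42.2% of all, while TCACNCCAC, a sterol regulatory element, stood in 1 of those 15, against 1.44% of all. The ERR motif TCAAGGTCA stood in 0.354% of all promoters.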
